A study of Homo sapiens with 12 samples.

Results

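The heavy polysome arrays of MCF10A cells were compared between wild-type (WT) cells and cells in which eIF4G1 was silenced (4GKD, called knockdown here). MCF10A is an established mammary epithelial line that is usually described as non-tumorigenic; the cell origin in the labels is breast cancer. Silencing used a doxycycline-inducible short hairpin RNA, and each genotype was either mock-treated or irradiated with 10 Gy from a linear accelerator. Heavy polysomes (HMW) are mRNAs that carry many ribosomes, at least 4 by the label of the WT mock pool, and were separated from light polysomes (LMW, 1 to 3 ribosomes in that label) on sucrose gradients. The members are the 4 HMW arrays out of 12 in the series, chosen by title: WT mock, 4GKD mock, WT 10 Gy and 4GKD 10 Gy. They form 2 pairs of knockdown against WT, called the mock pair and the 10 Gy pair. Each condition has 1 array. The sources used here do not say if the WT cells had a hairpin of their own or were given doxycycline, how long after irradiation cells were lysed, or if pools and total RNA came from the same cultures. Hairpin, drug and loss of eIF4G1 therefore cannot be told apart. Nothing says that the arrays stand for separate cultures, and no condition has replicates. The spread behind the p-values is how far the mock and 10 Gy pairs differ, so replicate spread was not measured.

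The eIF4G1 protein is the scaffold of the cap-binding complex eIF4F. It holds the cap-binding protein eIF4E and the helicase eIF4A together, binds poly(A)-binding protein, and recruits the small ribosomal subunit through eIF3, so that ribosomes can be loaded on capped mRNAs. An mRNA on which initiation is frequent is found in heavy polysomes, and its level there depends both on how much of it the cell holds and on how many ribosomes each copy carries. An array hybridised with a fixed amount of RNA gives relative levels only, so a change in the total amount of polysomes is not visible in these values.

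Levels are given as log2 of the deposited intensity, and differences as knockdown minus WT on that scale, where 1 is 2-fold. A gene was represented by its brightest probe set, and 10157 of 19775 genes reached 6 in at least 4 of the 12 arrays and were tested. Values below 6 are dim, and a difference that starts from them is approximate. The test was limma on the 4 arrays with genotype and treatment as terms, and genes with an adjusted p under 0.05 are called. With 1 residual degree of freedom limma pooled the spread entirely over genes of like intensity, so the agreement of a gene's own pairs does not enter its p-value. For that reason both pairs are given for the genes described at length.

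The labelled cell type was checked against its markers. All 8 mammary epithelial markers with a probe set, among them KRT5, KRT14 and KRT18, were at or above 6 in every HMW array. The hormone-responsive luminal markers PGR, FOXA1, AGR2 and TFF1 were below 6 in all 4, as were 4 of 4 endothelial markers and the leukocyte markers PTPRC and CD3E. GATA3, a luminal transcription factor, and CD14, a marker of monocytes, were above 6 in all 4, and ESR1 was at or above it in 3 of the 4. Of 8 mesenchymal markers, COL1A2, COL3A1, LUM and THY1 were below 6 in all 4 arrays, whereas VIM (vimentin), COL1A1 and DCN were above 6 in all 4.

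The WT mock HMW array stood apart from the other HMW arrays. Across the tested genes it correlated at 0.8796 with the 4GKD mock HMW array and at 0.9106 with the WT 10 Gy HMW array, but at 0.9307 with the WT mock LMW array and 0.9410 with the 4GKD mock LMW array. Both knockdown HMW arrays correlated at 0.9864 with each other, and the WT 10 Gy HMW array correlated with them at 0.9446 (mock) and 0.9324 (10 Gy). The mock pair was accordingly wider, with a standard deviation of the difference over genes of 0.90 against 0.65 in the 10 Gy pair. What sets the WT mock HMW array apart was not tested, and a result that is large in the mock pair alone rests on it.

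EIF4G1 was the gene with the lowest difference. Its level was 11.50 in WT and 7.53 in the knockdown in the mock arrays, and 10.97 and 7.56 in the 10 Gy arrays. Both knockdown arrays were thus far below both WT arrays, at 6.36% of WT in the mock pair and 9.43% in the 10 Gy pair. The difference was -3.69 (SE 0.40, adjusted p = 1.05e-16), and another probe set of EIF4G1 gave -3.82. In total RNA the difference was -2.47 and in light polysomes -1.99. The drop in heavy polysomes was larger than in total RNA by 1.22 on the log2 scale (limma, adjusted p = 0.0212) and larger than in light polysomes by 1.70 (adjusted p = 0.0144). In total RNA EIF4G1 was at 10.0 (mock) and 9.8 (10 Gy) in WT and at 7.4 and 7.5 in the knockdown. In light polysomes it was at 8.9 and 8.5 in WT and at 7.0 and 6.4 in the knockdown. The preparations thus differed more in WT than in the knockdown, and what sets the size of each drop was not tested. The related scaffold EIF4G2 (also called DAP5), which lacks the eIF4E-binding part of EIF4G1, was at 12.82 and 12.94 in the mock arrays and 12.91 and 12.60 in the 10 Gy arrays, and did not pass the test (-0.098, adjusted p = 0.86). EIF4G3 is not analysed here.

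Silencing was accompanied by differences in both directions in heavy polysomes. limma called 591 genes higher in the knockdown (5.82% of the genes tested) and 415 lower (4.09%). Of these 1006 genes, 1001 moved the same way in both pairs and 5 did not. The median over all genes tested was -0.00488. Beyond 2-fold in both pairs were 293 genes higher (2.88%) and 294 lower (2.89%), and 282 of the former and 271 of the latter were also called. The mock pair alone had 1539 genes at least 2-fold higher (15.2%) and 789 lower (7.77%). The 10 Gy pair alone had 429 higher (4.22%) and 631 lower (6.21%), but 525 and 518 after quantile normalisation and 523 and 536 after cyclic loess. Of the called genes, 507 of the 591 genes called higher had their larger difference in the mock pair, against 182 of the 415 called lower. Of the genes called higher, 305 were at least 2-fold higher in the 10 Gy pair, and of those called lower, 342 were at least 2-fold lower in it. Both WT HMW arrays were below 6 for 72 of the genes called higher, and both knockdown HMW arrays for 49 of those called lower. For 22 of the higher genes all WT arrays of the 12 were below 6, and for 19 of the lower genes all knockdown arrays were. Such genes passed the filter only through the genotype in which they are high and had to differ, so their folds are approximate and their calls support nothing by themselves. In a fit of all 12 arrays, 413 genes were higher and 414 lower, but leaving out the WT mock HMW array or the 4GKD mock HMW array left 0 calls in it (limma, lowest adjusted p 0.0673 and 0.0698, both for EIF4G1, with 1451 and 1453 genes at an unadjusted p under 0.05). Without the treatment term 25 genes were called, with 11 of the 30 highest and lowest genes named next among them.

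**Figure D1:**
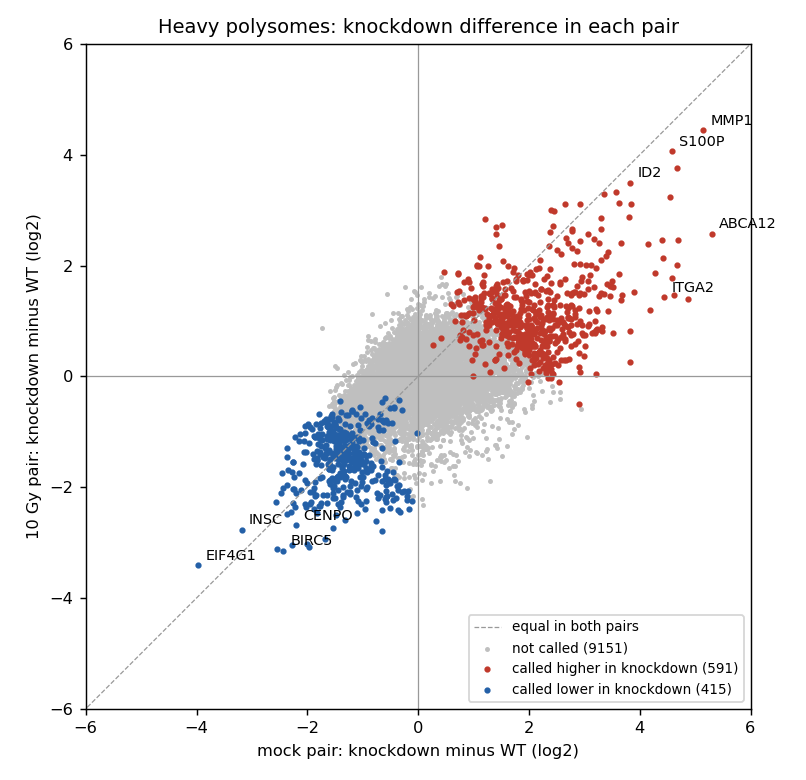
Knockdown minus WT (log2) in heavy polysomes in the mock pair (horizontal) and the 10 Gy pair (vertical), with 1 point per gene; grey points were not called, red points were called higher (591) and blue points lower (415) by limma. The lower genes lie around the dashed line of equality, while most of the higher genes lie to the right of it, with larger differences in the mock pair.

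Among the 15 genes lowest in knockdown heavy polysomes, ORC1, GINS2, TK1 and CDT1 belong to a list of replication genes and BIRC5 to a list of mitosis genes. BIRC5 (survivin), a subunit of the chromosomal passenger complex that is also counted among the inhibitors of apoptosis, was at 10.24 in WT and 7.80 in the knockdown in the mock arrays, and at 9.89 and 6.75 in the 10 Gy arrays. Every knockdown value lay more than 2 log2 units below every WT value (-2.79, SE 0.42, adjusted p = 6.84e-09). FOXM1, a transcription factor of the G2/M programme, was at 9.31 and 7.03 in the mock arrays and 8.91 and 5.87 in the 10 Gy arrays, again with no overlap of the genotypes (-2.66, adjusted p = 3.87e-08). MYBL2, a subunit of the complex that activates such genes, went from 10.34 to 8.07 and from 9.25 to 6.96, a difference of nearly the same size in both pairs (-2.27 and -2.29).

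Factors that license and start DNA replication were also among the 15. CDT1, which loads the MCM helicase onto origins, was at 9.97 in WT and 7.75 in the knockdown in the mock arrays, and at 9.12 and 6.76 in the 10 Gy arrays (-2.29, SE 0.42, adjusted p = 4.94e-06). Another probe set of CDT1 gave -1.24. ORC1, a subunit of the origin recognition complex, fell by 1.97 in the mock pair and 3.08 in the 10 Gy pair. TK1, thymidine kinase of the salvage pathway, fell by 2.57 and 2.27, and ASF1B, a histone chaperone of replicating chromatin, by 2.48 and 2.10. For these genes the knockdown arrays also lay below both WT arrays. As for BIRC5 and FOXM1, this follows largely from picking the lowest genes. GINS2, a subunit of the replicative helicase, was at -2.43 by its brightest probe set, but another probe set of the gene gave -0.192, and it was not called when the median of its probe sets was used (adjusted p = 0.87).

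The other genes among the 15 lowest were INSC (-2.98), an adaptor of spindle orientation, TCF19 (-2.83), CHRNA9 (-2.52), a subunit of nicotinic acetylcholine receptors, CENPO (-2.45), a kinetochore protein, PIMREG (-2.37) and E2F8 (-2.31), a repressor of the E2F family. INSC was at 7.53 and 4.35 in the mock arrays and 7.39 and 4.62 in the 10 Gy arrays, so its knockdown values were dim. INSC, CHRNA9 and E2F8 reached 6 in 6, 6 and 5 of the 12 arrays, all of them WT arrays. They thus passed the filter only through WT and had to differ. Another probe set of CENPO gave -0.52 in the mock pair and 0.34 in the 10 Gy pair, and the call for CENPO thus depends on the probe set.

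Counted over a list of 45 replication genes (helicase loading, polymerases, clamp, nucleotide reduction), 30 fell and 0 rose, against 4.09% and 5.82% of all genes tested. Their median was -1.26, with -0.94 in the mock pair and -1.55 in the 10 Gy pair, and 21 members were at least 2-fold lower in both pairs. The highest members were ORC2 (0.33) and RFC1 (0.22), which were not called. In total RNA 41 of the 45 were called lower, with a median of -1.19, against 19.8% of all genes tested called lower there. For the spindle, kinetochore and cytokinesis list, 29 of 54 fell and 0 rose, with a median of -1.20. Here the pairs differed: the median was -0.48 in the mock pair and -1.75 in the 10 Gy pair, and 46 members were at least 2-fold lower in the 10 Gy pair against 20 in the mock pair. SPC24, a subunit of the NDC80 complex that attaches microtubules, was at 8.95 in WT and 6.84 in the knockdown in the mock arrays and fell by 2.05 in the 10 Gy pair (-2.08). The large kinetochore proteins CENPE (1.18, adjusted p = 0.051) and CENPF (0.63, adjusted p = 0.42) had the highest values of the list and were not called. CENPE was at 6.70 in WT and 9.65 in the knockdown in the mock arrays but at 9.20 and 8.62 in the 10 Gy arrays, so that the WT mock array was the lowest of the 4.

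Genes of cell division share promoter elements, and the promoters of the genes called lower were searched for them. RefSeq promoters (GRCh38.p14, 250 bases before to 50 after the start) were matched by symbol for 8409 of the genes tested. Both strands were searched. The E2F letters TTTCGCGC, TTTGGCGC and TTTCCCGC were in 13.3% of 345 promoters of genes called lower, 2.59% of 501 called higher, 4.78% of all tested and 2.79% of the 27305 promoters in the table. Outside the replication and mitosis lists the share among genes called lower was 10.3%. The letters TTTGAA of the cell cycle genes homology region (CHR) were in 17.1% of the lower genes and 9.41% of all tested, and CCAAT in 47.0% and 37.4%. In the 27305 promoters of the table these shares were 15.4% and 35.7%. These shares are a description of letters in a window. The 150 bases before the start are shown for 4 lower genes, with any searched letters in capitals. ASF1B and CDT1 are among the 15 lowest; MCM7 (-1.50), a helicase subunit, and POLA2 (-1.80), a subunit of the primase complex, were added after their values were seen because they hold E2F letters. The window of CDT1 is chr16:88803639-88803788 on the + strand, that of MCM7 chr7:100101398-100101547 on the - strand, that of POLA2 chr11:65261812-65261961 on the + strand, and that of ASF1B chr19:14136590-14136739 on the - strand, each written 5′ to 3′ along the gene.
CDT1: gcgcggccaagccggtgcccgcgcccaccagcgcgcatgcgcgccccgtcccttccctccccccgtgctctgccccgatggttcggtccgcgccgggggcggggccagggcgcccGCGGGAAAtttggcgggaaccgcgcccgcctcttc
MCM7: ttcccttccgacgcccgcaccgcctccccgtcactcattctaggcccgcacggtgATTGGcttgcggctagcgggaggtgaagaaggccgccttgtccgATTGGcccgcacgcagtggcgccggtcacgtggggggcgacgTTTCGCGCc
POLA2: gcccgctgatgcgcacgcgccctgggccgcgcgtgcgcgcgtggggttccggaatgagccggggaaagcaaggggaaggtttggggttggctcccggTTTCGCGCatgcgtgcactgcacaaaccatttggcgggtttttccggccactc
ASF1B: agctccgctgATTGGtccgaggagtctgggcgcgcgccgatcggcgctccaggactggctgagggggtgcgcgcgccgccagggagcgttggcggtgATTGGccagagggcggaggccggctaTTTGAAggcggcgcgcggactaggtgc
CDT1, MCM7 and POLA2 each hold 1 match to the E2F letters, starting 35, 9 and 53 bases before the start. MCM7 also holds CCAAT in reverse (ATTGG) at 95 and 51 bases before it. ASF1B has no E2F letters in this window but holds ATTGG at 140 and 53 bases and TTTGAA at 27 bases before the start.

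The 15 genes highest in knockdown heavy polysomes included MMP1 and MMP10 of the metalloproteinase list, S100P and S100A7 of the S100 list, SPRR1B and PPL of the squamous list and DSG3 of the junction list, while AQP3, ABCA12, CYP1B1, C3, COXFA4L3 and SEMA3C are in no list. MMP1, interstitial collagenase, was at 3.91 in WT and 9.05 in the knockdown in the mock arrays, and at 3.51 and 7.95 in the 10 Gy arrays. It was dim in both WT arrays, so the differences of 35.3-fold and 21.7-fold are approximate. MMP1, MMP10 and ID2 each reached 6 in 4 of the 12 arrays, which are the knockdown arrays of light and heavy polysomes, so they passed the filter only through these arrays and had to differ. The same holds for AQP3 and S100A7, which reached 6 in 6 and 5 of the 12 arrays, all of them knockdown arrays. MMP10, stromelysin-2, was at 3.68 and 8.23 in the mock arrays and 3.72 and 6.95 in the 10 Gy arrays (3.89). S100P, a calcium-binding protein of the S100 family, was at 6.49 and 11.07 in the mock arrays and 6.84 and 10.90 in the 10 Gy arrays, 23.9-fold and 16.7-fold. AQP3, a water and glycerol channel of epithelia, was at 5.69 and 10.37 in the mock arrays and 5.82 and 9.57 in the 10 Gy arrays. Of AQP3, another 2 probe sets gave far smaller differences, 0.55 and 0.76 in the mock pair and 1.44 and 0.86 in the 10 Gy pair, so its place among the 15 highest depends on the probe set. In none of MMP1, MMP10, S100P and AQP3 did the genotypes overlap by the chosen probe set. They were picked for large differences of equal direction, so this separation follows largely from the pick.

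C3, the central complement component, was the brightest gene of this group, at 9.50 in WT and 13.08 in the knockdown in the mock arrays, and at 10.25 and 13.57 in the 10 Gy arrays. Its differences of 3.57 and 3.32 did not start from a dim value (3.45, SE 0.27, adjusted p = 3.78e-32). ID2, an inhibitor of basic helix-loop-helix transcription factors, was at 5.12 and 8.95 in the mock arrays and 5.23 and 8.72 in the 10 Gy arrays (3.66). PPL, periplakin of the cornified envelope, was at 5.63 and 8.99 in the mock arrays and 5.79 and 9.07 in the 10 Gy arrays (3.32). S100A7 (psoriasin) was at 3.48 and SPRR1B, a cornified envelope precursor, at 3.37, and both rose by more than 3 in each pair.

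For 5 of the 15 highest genes the pairs were less alike, because the WT mock value was lower than the WT 10 Gy value. ABCA12, a lipid transporter of keratinocytes, was at 4.39 in WT and 9.69 in the knockdown in the mock arrays, and at 7.12 and 9.70 in the 10 Gy arrays. The knockdown arrays were nearly equal, and the pairs gave 5.31 and 2.58. DSG3, a desmosomal cadherin, gave 4.40 and 2.46, CYP1B1, a cytochrome P450, 4.69 and 2.47, SEMA3C, a secreted semaphorin, 4.41 and 2.14, and TRIP11, a golgin, 4.67 and 2.00. Each of them was at least 2-fold higher in both pairs. COXFA4L3 completed the 15 highest with 3.80 and 2.87. For 12 of the 30 highest and lowest genes, 16 other probe sets reached the filter level in 2 or more HMW arrays. Of these 16, 15 went the same way as the chosen probe set in both pairs, the exception being that of CENPO. Sizes differed as given for AQP3, CDT1 and GINS2. Dimmer probe sets were left out of this count. Among them, that of CYP1B1 and some of TRIP11 did not go the same way in both pairs, while that of GINS2 and another of TRIP11 did.

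**Figure D2:**
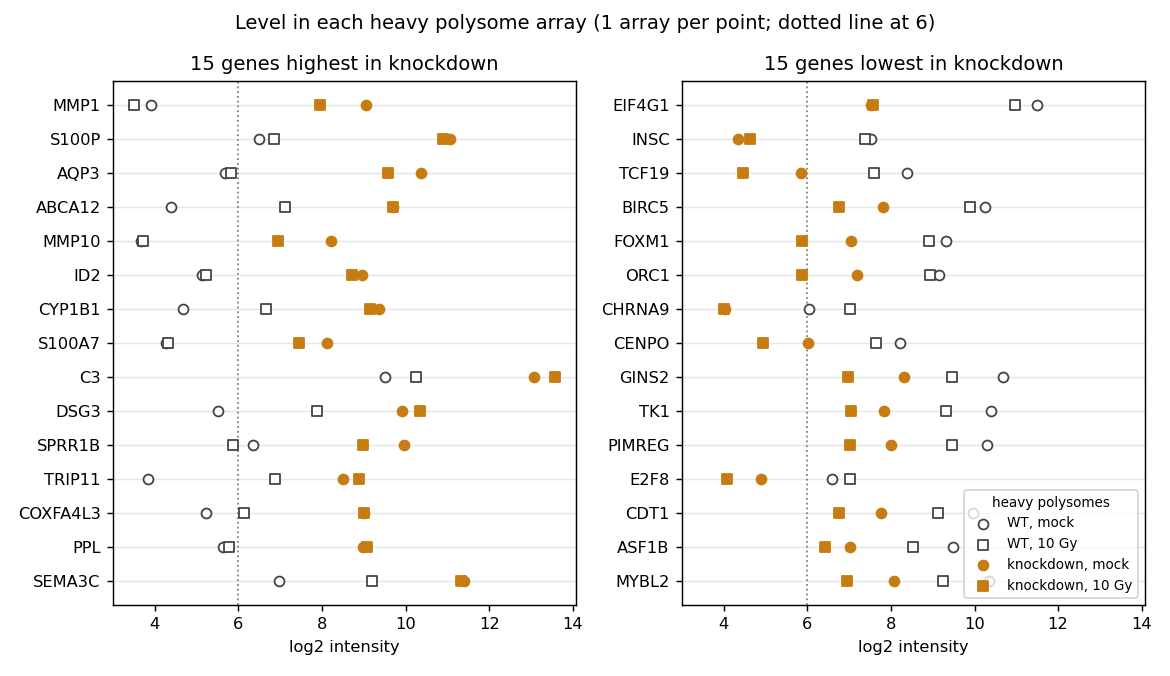
Log2 intensity of the 15 genes with the highest (left) and the 15 with the lowest (right) difference in each of the 4 heavy polysome arrays, with 1 array per point; open symbols are WT, filled symbols knockdown, circles mock and squares 10 Gy. Open and filled symbols do not overlap for any gene shown, which follows largely from picking the most extreme genes. The open circles of ABCA12, DSG3, CYP1B1, SEMA3C and TRIP11 lie left of their open squares.

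Other letters were counted in the promoters of the higher genes. TATAAA was in 10.7% of 244 promoters of genes at least 2-fold higher in both pairs, but in 6.99% of those of all genes called higher and 6.09% of those called lower. It was in 5.16% of all tested and in 11.9% of the 27305 promoters in the table. The AP-1 letters TGAGTCA and TGACTCA were in 4.59% of the genes called higher and 2.96% of all tested, and the cyclic AMP response letters TGACGTCA in 2.00% and 3.45%. In the 27305 promoters of the table these shares were 4.92% and 1.98%, close to those of the genes called higher. The 150 bases before the start are shown for 3 of the 15 highest genes whose TATAAA lies at the usual distance. They were picked for that match. The windows are chr4:6693728-6693877 on the + strand for S100P, chr9:33447594-33447743 on the - strand for AQP3 and chr11:102780629-102780778 on the - strand for MMP10 (GRCh38.p14), with TATAAA in capitals.
S100P: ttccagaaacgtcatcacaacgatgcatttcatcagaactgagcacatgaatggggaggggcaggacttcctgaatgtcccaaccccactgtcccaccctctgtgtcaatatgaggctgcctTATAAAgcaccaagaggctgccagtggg
AQP3: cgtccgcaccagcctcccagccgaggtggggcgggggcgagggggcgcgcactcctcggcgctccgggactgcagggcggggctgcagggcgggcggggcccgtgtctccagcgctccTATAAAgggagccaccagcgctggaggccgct
MMP10: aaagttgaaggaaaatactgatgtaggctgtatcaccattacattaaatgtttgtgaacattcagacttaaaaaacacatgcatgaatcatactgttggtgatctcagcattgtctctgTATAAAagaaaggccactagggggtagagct
The letters start 28, 32 and 31 bases before the start in S100P, AQP3 and MMP10. The first 50 transcribed bases, where the 5′ leader begins, had a median GC content of 66% in genes called higher, 68% in genes called lower and 68% in all tested.

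Of 18 genes of desmosomes, cadherins and tight junctions, 13 rose and 0 fell, against 5.82% and 4.09% of all genes tested, with a median of 1.71 (1.99 in the mock pair, 1.37 in the 10 Gy pair), and 10 were at least 2-fold higher in both pairs. DSC3, a partner of DSG3 in the desmosome, was at 5.24 in WT and 9.82 in the knockdown in the mock arrays, and at 8.40 and 10.18 in the 10 Gy arrays (3.18). The lowest members, CTNNB1 (beta-catenin, -0.33) and PKP3 (plakophilin, -0.04), were not called. Of 33 genes of collagens, laminins, integrins and matrix proteins, 17 rose and 0 fell, with a median of 1.23 (1.40 and 0.66 in the pairs), and 12 were at least 2-fold higher in both pairs. ITGA2, the collagen-binding integrin chain, was at 6.94 and 11.38 in the mock arrays and 9.84 and 11.26 in the 10 Gy arrays (2.93), so its size depends much on the WT mock array. DCN (decorin), a small matrix proteoglycan, was at 6.22 and 9.29 in the mock arrays and 6.89 and 9.46 in the 10 Gy arrays (2.82). DCN is also among 8 mesenchymal markers, whose summed level was 13.73 (mock) and 13.80 (10 Gy) in the WT arrays and 13.39 and 13.37 in the knockdown arrays, and of which COL1A2, COL3A1, LUM and THY1 were dim throughout. Nearly all of that sum is VIM, at 13.68 (mock) and 13.76 (10 Gy) in WT and 13.24 and 13.18 in the knockdown. COL1A1 was at 8.04 and 7.52 in WT and 8.13 and 8.78 in the knockdown. Their part in the rise of the matrix genes was not tested. SPARC, a matrix glycoprotein, had the lowest value of the list (-0.96, adjusted p = 0.14).

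Of 16 metalloproteinases and inhibitors, 6 rose and 0 fell, against 5.82% and 4.09% of all genes tested. Of 14 squamous differentiation genes, 5 rose, all at least 2-fold in both pairs, and 0 fell. Among these SERPINB3, a member of the serpin family found in squamous epithelia, rose by 3.30 in the mock pair and 2.86 in the 10 Gy pair (3.08). In the S100 family 5 of 13 rose and S100A4 fell (-1.44). Keratins did not move together: KRT15 rose (2.76 in the mock pair and 1.47 in the 10 Gy pair), KRT18 rose, and KRT14, a basal keratin, fell from 13.59 to 11.98 in the mock pair and from 13.52 to 12.75 in the 10 Gy pair (-1.19, adjusted p = 3.91e-08). The receptors EGFR (1.44) and ERBB3 (1.37) were the 2 of 10 EGF receptor family genes that rose. EGFR was at 9.45 and 11.24 in the mock arrays and 10.09 and 11.18 in the 10 Gy arrays.

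Of 17 cytokines, chemokines and their regulators, 8 rose, each at least 2-fold in both pairs, and 0 fell, against 5.82% and 4.09% of all genes tested (median 1.08). The other 9 were not called, with IL32 (-0.41) and IL1B (-0.09) the lowest. IL24, a cytokine of the IL-10 family, was at 4.86 and 7.64 in the mock arrays and 5.48 and 8.12 in the 10 Gy arrays (2.71), and CXCL3, a neutrophil chemokine, gave 2.91 and 1.23 in the pairs. Of 22 genes of TGF-beta ligands and contractile targets, 4 rose and 3 fell. INHBA, the activin A subunit, was at 6.65 and 11.51 in the mock arrays and 10.26 and 11.66 in the 10 Gy arrays (3.13), and TGFB2 rose by 3.27 and 2.40, whereas PMEPA1 (-1.43) and FSTL1 (-1.44), both known to respond to TGF-beta, fell. Besides ID2, the BMP pathway list of 18 held 2 other genes that rose, among them the ligand BMP2 (2.93 and 2.02 in the pairs). Of 29 interferon-stimulated genes 4 rose, led by the RNA sensor IFIH1 (3.27 and 1.45 in the pairs) and SAMD9 (2.96 and 0.92), and 0 fell. Of 27 immediate-early genes 3 rose. Of these ATF3, a stress-induced factor, was at 6.23 and 8.23 in the mock arrays and 7.88 and 9.71 in the 10 Gy arrays (1.91).

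**Figure D3:**
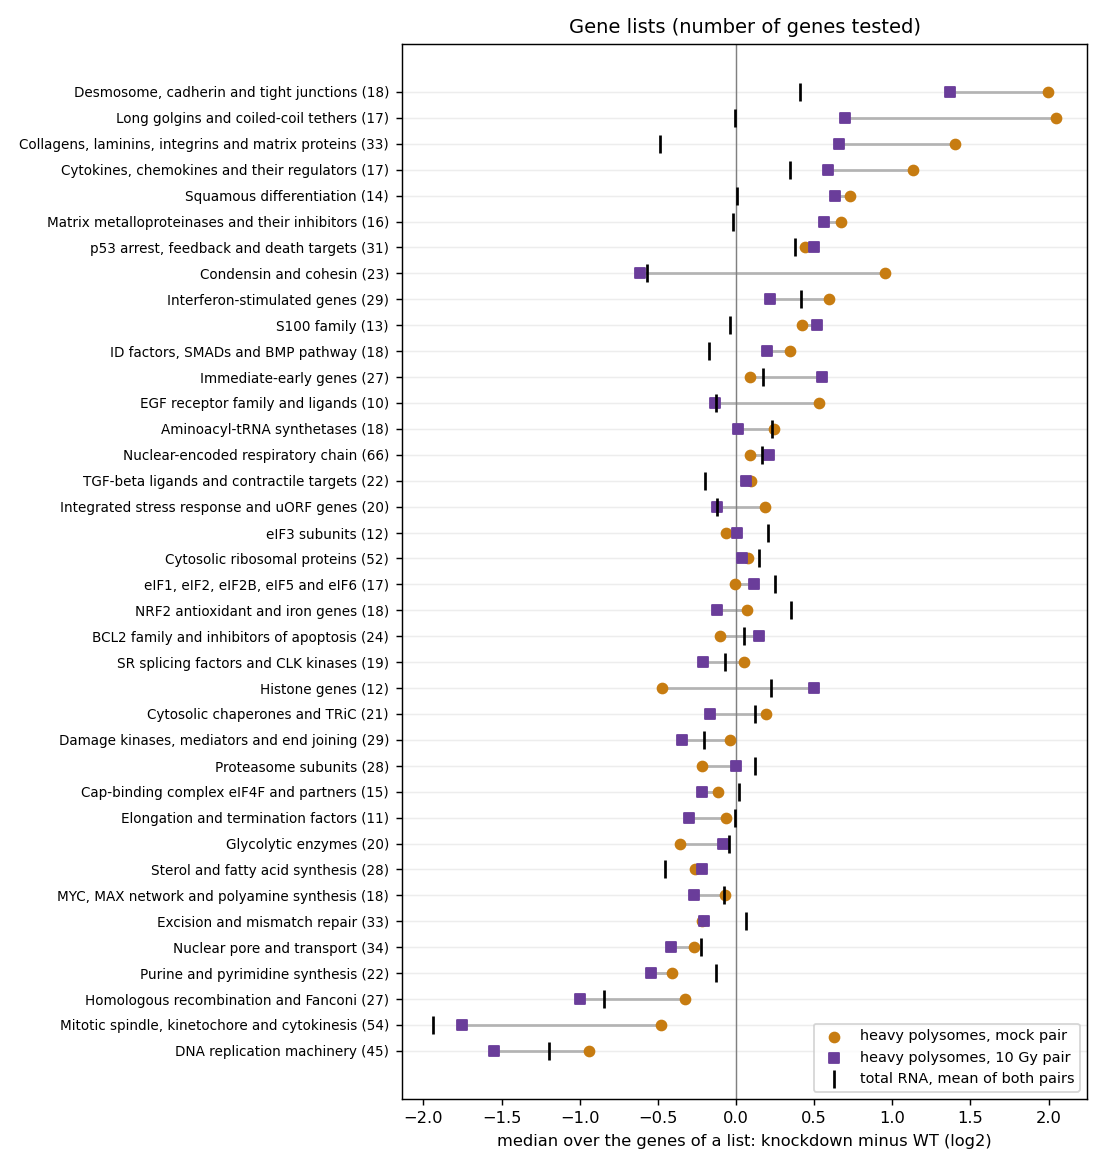
Median over the genes of each list of knockdown minus WT (log2), for lists with at least 10 genes tested; circles are the mock pair and squares the 10 Gy pair in heavy polysomes, joined by a line, and the bars give total RNA. Adhesion, golgin and matrix genes lie highest and replication and mitosis genes lowest. The condensin and histone lists are among several with medians of opposite sign in the pairs.

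In the translation machinery the calls are to be read against the 5.82% higher and 4.09% lower of all genes tested. Of 52 cytosolic ribosomal proteins 0 were called and 4 had an unadjusted p under 0.05 (limma; median 0.06, range -0.37 to 0.43). Of 11 elongation and termination factors 0 were called by limma and 1 had an unadjusted p under 0.05, with EEF1A1 at 0.12 and EIF5A at -0.51. Among 15 genes of the cap-binding complex and its partners, EIF4G1 and EIF4EBP1 fell and PABPC1 rose. EIF4EBP1, the repressor that sequesters eIF4E, was at 10.61 and 8.96 in the mock arrays and 9.60 and 8.47 in the 10 Gy arrays (-1.39, adjusted p = 0.0101). PABPC1, the poly(A)-binding protein, differed in the mock pair (1.00) and hardly in the 10 Gy pair (0.015), so its call (adjusted p = 0.00998) rests on the WT mock array. The cap-binding protein EIF4E (-0.29) and the helicase cofactors EIF4B (0.08) and EIF4H (-0.21) did not pass the test. Of 12 eIF3 subunits only EIF3A was called, at 10.36 and 12.51 in the mock arrays and 11.54 and 12.41 in the 10 Gy arrays (1.51). EIF5B, which joins the ribosomal subunits, was at 7.63 and 11.05 in the mock arrays and 10.03 and 11.20 in the 10 Gy arrays (2.30), and EIF1AD fell (-1.47). Of 18 aminoacyl-tRNA synthetases and partners, AIMP1 (1.10), LARS1 (0.95) and EPRS1 (0.85) rose and 0 fell.

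Genes of the integrated stress response went both ways. ATF3 rose while PHGDH, the entry enzyme of serine synthesis, fell from 9.22 to 7.22 in the mock pair and from 8.72 to 6.79 in the 10 Gy pair (-1.97), and the pseudokinase TRIB3 (-1.09) and PSAT1 fell with it. The ISR-induced PPP1R15A and SLC7A11 both stood at 1.05 and did not pass the test.

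The study's title names DNA repair and survival mRNAs, and these lists were therefore examined gene by gene. Their calls are to be read against 5.82% higher and 4.09% lower among all genes tested. Of 27 homologous recombination and Fanconi genes, 8 fell and 1 rose, with a median of -0.59 (-0.33 in the mock pair), and 13 were at least 2-fold lower in the 10 Gy pair. The genes that fell were EXO1 (-0.77 in the mock pair and -2.61 in the 10 Gy pair), FANCG (-1.66), RAD54L (-1.57), FANCI (-1.56), RAD54B (-0.33 and -2.44), BARD1 (-1.32), UBE2T (-1.30) and FANCC (-1.18). FANCI, which is ubiquitinated when the Fanconi pathway is activated, was at 10.55 and 9.23 in the mock arrays and 10.83 and 9.03 in the 10 Gy arrays. BARD1, the partner of BRCA1, was at 8.48 and 7.43 in the mock arrays and 8.66 and 7.07 in the 10 Gy arrays. For both, the knockdown arrays lay below both WT arrays. BRCA1 was at 7.79 and 7.92 in the mock arrays and at 8.91 and 7.60 in the 10 Gy arrays. Its difference was 0.13 in the mock pair and -1.31 in the 10 Gy pair, and it did not pass the test (-0.59, adjusted p = 0.47). RAD50, of the break-sensing MRE11 complex, was the gene that rose, from 7.15 to 9.94 in the mock pair and from 9.42 to 10.19 in the 10 Gy pair (1.78, adjusted p = 0.000544). Its partners MRE11 (0.19) and NBN (0.19) did not pass.

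Of 33 genes of excision and mismatch repair, APTX (-1.21) and the glycosylase NEIL3 fell (the latter by 0.20 in the mock pair and 2.16 in the 10 Gy pair) and the nuclease ERCC4 rose (1.32), while PARP1 (-0.33), MSH6 (-0.55) and XRCC1 (-0.50) did not pass. The shares called were near the 4.09% lower and 5.82% higher of all genes tested. ERCC4 was at 4.04 and 6.47 in the mock arrays and 6.57 and 6.79 in the 10 Gy arrays, so its call rests on the WT mock array. Of 29 damage kinases, mediators and end-joining genes, the phosphatase CDC25A (-1.43), the histone variant H2AX (-1.32) and TIMELESS (-1.19), a fork protection factor, fell, and the end-joining ligase LIG4 rose (1.97 and 0.87 in the pairs). H2AX was at 11.54 and 10.11 in the mock arrays and 10.29 and 9.08 in the 10 Gy arrays. The kinases ATM (0.75, adjusted p = 0.32), ATR (0.82, adjusted p = 0.14) and PRKDC (0.80, adjusted p = 0.0675) were positive in both pairs but did not pass. CHEK1 (-1.08, adjusted p = 0.0851) and CHEK2 (-0.94, adjusted p = 0.15) did not pass either, and TP53BP1 was close to 0 in both pairs (-0.041 and -0.13).

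Against 5.82% higher and 4.09% lower of all genes tested, 5 of 31 p53 targets rose and 0 fell (median 0.40). These were FAS (1.43), MDM2 (1.43), GADD45A (1.31), PMAIP1 (1.21) and ZMAT3 (1.18). MDM2, the ubiquitin ligase of p53, was at 7.84 and 10.11 in the mock arrays and 10.34 and 10.92 in the 10 Gy arrays, so that the WT 10 Gy array was above the knockdown mock array. The same order held for ZMAT3, while GADD45A was at 8.05 and 9.74 in the mock arrays and 9.36 and 10.29 in the 10 Gy arrays, with the WT 10 Gy array below both knockdown arrays. None of the 31 was at least 2-fold higher in the 10 Gy pair, against 9 in the mock pair. The cell cycle inhibitor CDKN1A stood at 0.59 in both pairs and did not pass (adjusted p = 0.30). Of 24 genes of the BCL2 family and inhibitors of apoptosis, the pro-apoptotic PMAIP1 (NOXA) and BNIP3L (1.20) rose and BIRC5 fell. These counts are near the shares of all genes tested. XIAP, an inhibitor of caspases, was at 7.10 and 8.84 in the mock arrays and 8.84 and 9.11 in the 10 Gy arrays (1.01, adjusted p = 0.12). MCL1 (0.02), BCL2L1 (-0.16), BCL2 (0.19) and BIRC2 (0.23) did not pass the test.

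In lists of long coiled-coil and chromosome proteins the pairs differed in size or sign. Among all genes tested 5.82% were called higher and 4.09% lower. Of 17 long golgins and tethers, 10 rose and 1 fell, with a median of 2.05 in the mock pair and 0.70 in the 10 Gy pair; 13 were at least 2-fold higher in the mock pair and 4 in the 10 Gy pair. AKAP9, a scaffold of the Golgi and centrosome, was at 5.04 and 9.19 in the mock arrays and 7.11 and 9.50 in the 10 Gy arrays (3.27). GOLGA3 was the gene that fell (-1.55). Of 23 condensin and cohesin genes, 5 fell and 2 rose, and the median was 0.96 in the mock pair but -0.61 in the 10 Gy pair. CDCA5 (sororin), which protects cohesion, fell in heavy polysomes (-2.14), while NIPBL, the cohesin loader, rose (1.23) with 2.13 in the mock pair and 0.34 in the 10 Gy pair. Of 34 nuclear pore and transport genes, NUP62 (-1.19), NUP93 (-1.10) and 2 others fell, and the long filament proteins TPR (1.50) and RANBP2 (1.28) rose.

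The metabolic and housekeeping lists are likewise to be read against 5.82% higher and 4.09% lower among all genes tested. Of 28 sterol and fatty acid genes 1 rose (SC5D, 1.78) and 0 fell. Of 20 glycolytic genes PKM fell (-0.88), and of 28 proteasome genes PSMD2 fell (-0.68). Of 66 nuclear respiratory chain genes 4 rose, a share near that of all genes, led by UQCRC1 (1.04) and COX6A1 (0.97). Of 7 mitochondrially encoded transcripts, which are not translated by cytosolic ribosomes, 3 rose, among them ND2 (1.51) and ND4 (0.95). Of 22 purine and pyrimidine genes 4 fell, among them TYMS, thymidylate synthase, from 12.15 to 10.78 and from 12.30 to 10.64, and DTYMK (-1.51). Of 18 genes of the MYC network and polyamine synthesis 3 fell, among them SRM, spermidine synthase (-0.98), and 1 rose. The chaperones of the endoplasmic reticulum HSPA5 (1.19) and HSP90B1 (1.18) were among 3 of 21 chaperone genes that rose. Of 18 antioxidant genes 2 rose, including AKR1C1 (0.76), and SRXN1, sulfiredoxin, fell (-1.27). Histone genes moved apart: H2AC6 (2.06) and H2BC12 (1.91) rose, and H2AX and H2AZ1 (-1.27) fell. Of 19 SR splicing genes SON rose (0.87) and TRA2B fell (-0.80). Of 8 nuclear noncoding RNAs and snoRNA hosts 0 were called by limma and 1 had an unadjusted p under 0.05, with NORAD at 1.03 and TUG1 at -0.35.

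Genes with opposite differences in the pairs were looked for, since they would be averaged out. In 16 genes the knockdown was at least 2-fold higher in the mock pair and at least 2-fold lower in the 10 Gy pair, and in 0 genes the other way. Ranked by the smaller in size of the mock and 10 Gy differences, the first were MYBL1, GAS2L3, KIF14 and CHML. KIF14, a kinesin of cytokinesis, was at 8.85 in WT and 10.28 in the knockdown in the mock arrays, and at 10.84 and 9.55 in the 10 Gy arrays. The knockdown values lay between the WT values, with WT mock the lowest of the 4. MYBL1 (1.50 and -1.44 in the mock and 10 Gy pairs), GAS2L3 (1.29 and -1.90) and CHML (1.27 and -1.49) had the same order of arrays. These differences compare 1 array with 1 and were not tested.

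The differences in heavy polysomes were then set beside those in total RNA, where limma called 2100 genes higher (20.7%) and 2013 lower (19.8%). Of the 415 genes lower in heavy polysomes, 355 (85.5%) were also lower in total RNA, which is 17.6% of the genes lower there. Of the 591 higher genes, 286 (48.4%) were also higher in total RNA (13.6% of those) and 56 were lower. The median difference in total RNA was -1.02 for the genes lower in heavy polysomes and 0.29 for those higher. In a direct test of the difference between both preparations, 288 genes stood higher in heavy polysomes than in total RNA (2.84%) and 46 lower (0.453%).

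DCN had the largest such gap (6.18, limma, adjusted p = 2.27e-34). In total RNA it was at 10.15 in WT and 7.05 in the knockdown in the mock arrays, and at 10.54 and 6.93 in the 10 Gy arrays, the reverse of heavy polysomes. SERPINB3 had the same reversal (3.08 in heavy polysomes and -1.43 in total RNA, a gap of 4.51). MMP1 was at 3.26 and 3.76 in the mock arrays and 3.01 and 3.39 in the 10 Gy arrays of total RNA. It was therefore dim in all 4 total RNA arrays, the knockdown included, while it was at 7.95 or above in both knockdown HMW arrays. ID2 (at most 5.14 in total RNA) and MMP10 (at most 3.82) showed the same pattern, with gaps of 3.99 and 3.88 that rest on dim total RNA values. An mRNA in polysomes is also part of total RNA, and why these transcripts were dim there was not tested. Other gaps of the 15 highest genes were those of S100P (3.79), AQP3 (3.31), SPRR1B (3.22) and TRIP11 (3.12).

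Several lists held many such genes. Of the 33 matrix genes 16 stood higher in heavy polysomes than in total RNA, where their median was -0.49 and 20 of 33 were called lower. The median of all 54 mitosis genes was -1.94 in total RNA, and 15 of them stood higher in heavy polysomes than in total RNA, among them CENPE (gap 3.01) and CENPF (gap 2.84), whose mean differences in heavy polysomes were above 0 but negative in the 10 Gy pair. TOP2A, the topoisomerase of mitotic chromosomes, fell in total RNA from 10.50 to 8.78 and from 10.52 to 7.72, but in heavy polysomes it was at 10.26 and 11.29 in the mock arrays and 11.93 and 10.57 in the 10 Gy arrays (gap 2.10). Of the 18 junction genes 8 stood higher in heavy polysomes than in total RNA, of the 17 golgins 6, and of the 45 replication genes 1. In each of these 5 lists 0 members stood lower. The gaps on the lower side were led by IFI6, an interferon-induced protein, which rose in total RNA (2.67) and not in heavy polysomes (0.16), a gap of -2.51. It was followed by TUBAL3 (-2.02), which reached 6 only in the 4 WT polysome arrays, MEX3D (-1.83), the gelatinase MMP9 (-1.69) and the folate receptor FOLR1 (-1.62). MMP9 rose in total RNA (1.96) and stood at 0.27 in heavy polysomes, which sets it apart in sign of the gap from MMP1 and MMP10.

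**Figure D4:**
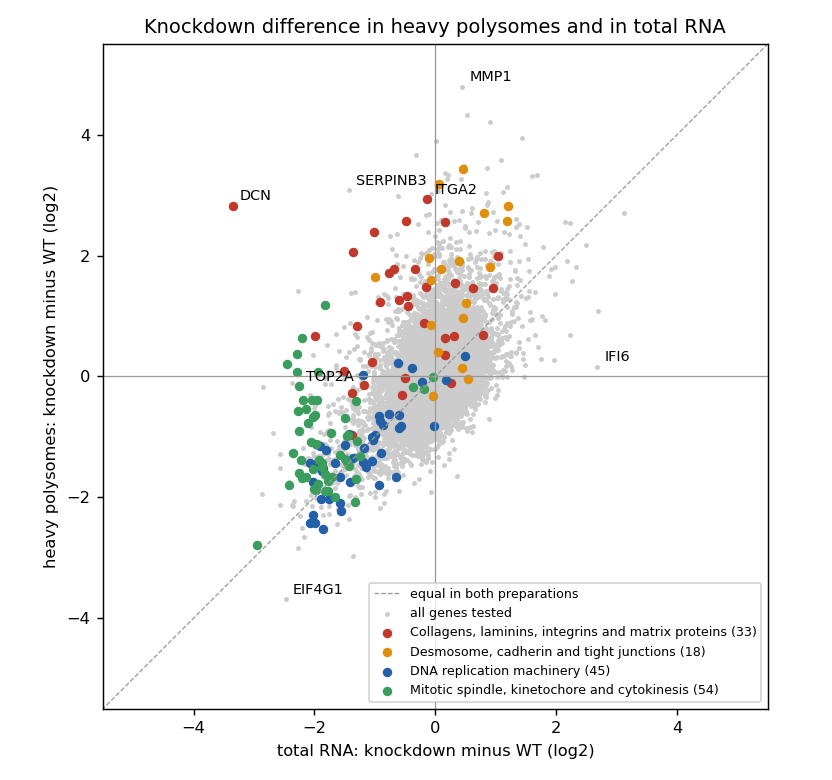
Knockdown minus WT (log2) in total RNA (horizontal) and in heavy polysomes (vertical), each the mean of the mock and 10 Gy pairs, with 1 point per gene and 4 lists in colour. Replication genes lie along the dashed line of equality, while matrix genes (red) lie above it, with DCN at -3.36 in total RNA and 2.82 in heavy polysomes.

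The differences were also set beside those in light polysomes. There limma called 1047 genes higher (10.3%) and 518 lower (5.10%) in the knockdown. Of the genes higher in heavy polysomes, 412 (69.7%) were also higher in light ones (39.4% of those), and 0 were lower. Of the genes lower in heavy polysomes, 236 (56.9%) were also lower in light ones (45.6% of those), and 2 were higher. MMP1 (4.36), ID2 (3.91) and DCN (3.27) rose in light polysomes about as much as in heavy ones. Across all genes tested the difference in heavy polysomes correlated at 0.72 with that in light polysomes and at 0.49 with that in total RNA, as a description across genes that are not independent.

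The direct test of heavy against light polysomes called 534 genes higher (5.26%) and 820 lower (8.07%). TRIP11 had the largest positive gap (2.46), with 3.34 in heavy and 0.88 in light polysomes, and in light polysomes it was below 6 in all 4 arrays. AKAP9 (1.97), KIAA1143 (2.34), DYNLT3 (1.97), a dynein light chain, and UFM1 (1.83), a ubiquitin-like modifier, followed. Of these, KIAA1143 (0.90) and UFM1 (1.13) were not called in heavy polysomes, and they stood at -1.44 and -0.70 in light polysomes. On the other side, EPRS1, the glutamyl-prolyl-tRNA synthetase, was at 11.80 and 13.19 in the mock arrays and 12.64 and 12.94 in the 10 Gy arrays of heavy polysomes (0.85). In light polysomes it went from 7.88 to 11.85 and from 9.13 to 11.64 (3.24), a gap of -2.40. TOP2A (-2.24), NAA15 (-2.21), an acetyltransferase subunit, UBE2O (-2.13), a ubiquitin-conjugating enzyme, and CC2D1A (-2.06) followed. For these genes the rise was larger in light than in heavy polysomes, or was present in light polysomes alone. Of the 45 replication genes 15 fell in light polysomes, with a median of -0.68 against -1.26 in heavy ones. The difference between these medians was not tested.

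**Figure D5:**
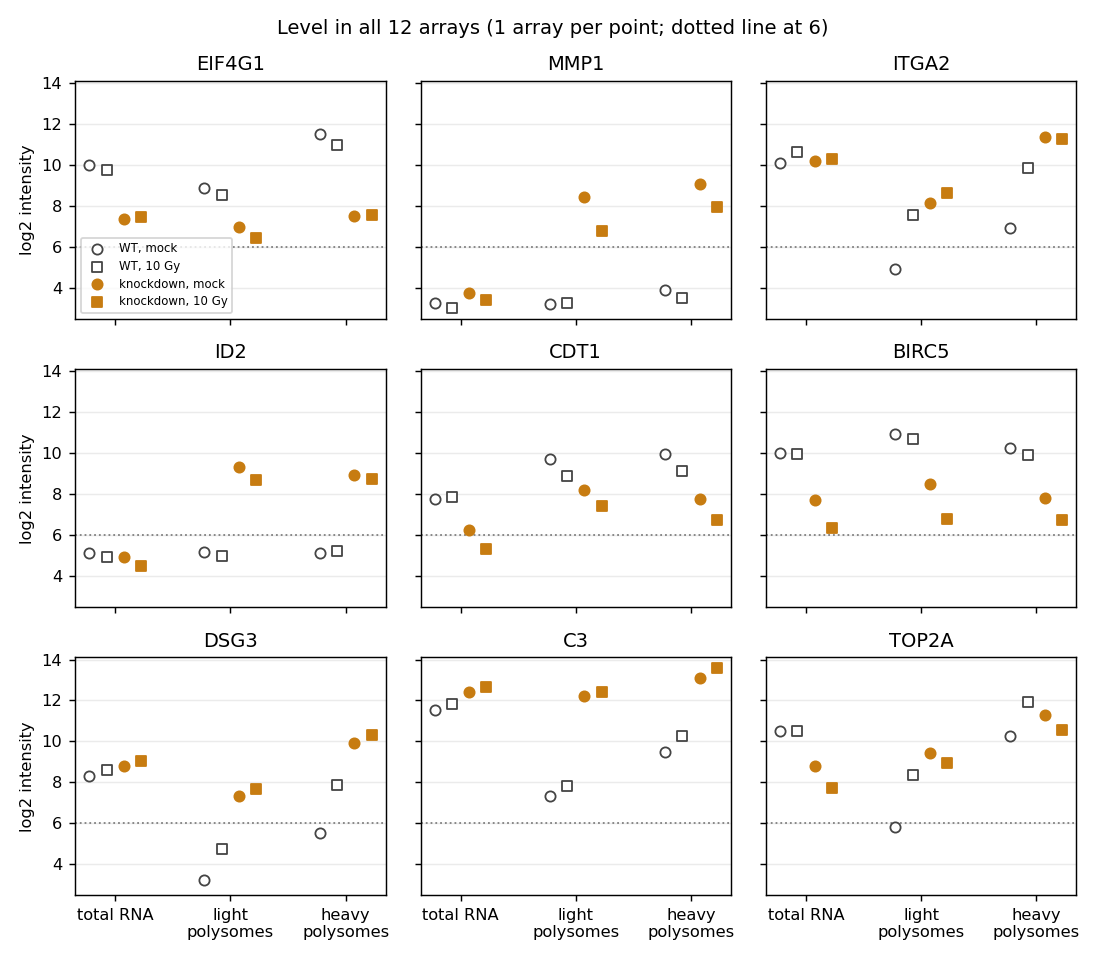
Log2 intensity of 9 genes in all 12 arrays, by RNA preparation, with 1 array per point; open symbols are WT, filled symbols knockdown, circles mock and squares 10 Gy, and the dotted line is at 6. EIF4G1, CDT1 and BIRC5 are lower in the knockdown in all preparations, whereas MMP1 and ID2 are dim in all total RNA arrays and high in the knockdown polysome arrays.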

How the data were processed

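Per the submitters' processing notes, the authors made the deposited intensity values with RMA, a background correction and normalisation for such arrays. The sources used here give neither its version nor which arrays were normalised as a set. The table holds linear intensities of 54675 probe sets on 12 arrays (medians 22.6 to 24.4) and was turned to log2. The array's annotation gave 1 gene symbol to 41097 probe sets, several to 1801 and none to 11777, and those with 1 symbol were used. Of a gene's probe sets the brightest over all arrays was taken. The filter was a log2 value of 6 or more in 4 or more arrays.

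limma 3.58.1 in R 4.3.3 fitted genotype and treatment to the 4 HMW, the 4 Total and the 4 LMW arrays, and to the 4 differences HMW minus Total and HMW minus LMW (eBayes with a trend, Benjamini-Hochberg over all genes, threshold 0.05). Single pairs were counted at 2-fold. The number of arrays limits the precision. On simulated data with 200 changed genes among 10157, the HMW fit recovered 13% of 2-fold and 91% of 4-fold changes with 0.952% false calls. For HMW minus Total the shares were 13% and 85% with 10.9% false calls, and for HMW minus LMW 48% and 92% with 2.78%. The simulated noise was independent between genes and drawn from the fitted spread of the same model. An array that stands apart, as the WT mock HMW array does, was not simulated, so these shares do not cover it.

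The comparison, its members and the 41 gene lists (1195 genes, 936 tested) were chosen with earlier results of these data known. Named are EIF4G1 and its paralogs, the 15 highest and the 15 lowest called genes of equal direction in both pairs, the 5 highest and 5 lowest for each difference between preparations, the 4 largest opposite pairs, and in each list the 2 highest and 2 lowest. Repair, damage, survival, p53 and initiation genes could be named freely. MCM7, POLA2, KRT18 and PSAT1 were named after their values were seen. Alternatives were other filters, probe sets, normalisations and variance models, a fit of all 12 arrays, no treatment term, and each HMW array left out. Background correction and scan batches could not be varied, since scanner files were not used here.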

Additional observations from a re-analysis of the deposited data

Results flagged for a closer look

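These results were singled out because the difference between knockdown and WT differed between RNA preparations by limma's test of that difference, or, untested, because the mock and 10 Gy pairs of heavy polysomes went opposite ways. The difference in heavy polysomes was above that in total RNA for 288 genes and below it for 46, and above that in light polysomes for 534 genes and below it for 820. Against total RNA the gap was 6.18 for DCN, 4.51 for SERPINB3, 4.35 for MMP1, 3.99 for ID2, 3.88 for MMP10, 3.79 for S100P, 3.31 for AQP3, 3.22 for SPRR1B, 3.12 for TRIP11 and 3.08 for AKAP9. It was 3.01 for S100A7, 2.97 for DSG3, 2.85 for SEMA3C, 2.59 for C3, 2.51 for ABCA12, 2.50 for CYP1B1, 2.10 for TOP2A, 1.72 for PPL and 1.65 for COXFA4L3. Gaps on the lower side were -2.51 for IFI6, -2.02 for TUBAL3, -1.83 for MEX3D, -1.69 for MMP9, -1.62 for FOLR1, -1.61 for INSC and -1.22 for EIF4G1. Against light polysomes the gap was 2.46 for TRIP11, 2.34 for KIAA1143, 1.97 for DYNLT3, 1.97 for AKAP9 and 1.83 for UFM1. On the lower side of that comparison it was -2.40 for EPRS1, -2.24 for TOP2A, -2.21 for NAA15, -2.13 for UBE2O, -2.06 for CC2D1A, -1.70 for EIF4G1, -1.49 for ORC1, -1.25 for FOLR1 and -0.81 for CDT1. Within heavy polysomes the 10 Gy pair lay below the mock pair by -3.19 for GAS2L3, -2.95 for MYBL1, -2.76 for CHML and -2.72 for KIF14, and these gaps were not tested.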

How the results depend on the processing

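The main limit is that each condition has 1 array and that the WT mock HMW array stands apart. The count of genes called in heavy polysomes was 1006. It was 575 without probe sets whose names end in _x_at or _s_at and 25 without the treatment term, where 11 of the 30 top genes were still called. It stayed within 1.5 times under the other filters, normalisations, variance models and fits of all arrays. Leaving out each HMW array in turn in the fit of all arrays, where the array left alone is assumed to vary like the other groups, gave 0 to 402 calls. The count for heavy polysomes minus total RNA was 334, and was 623 with no filter, 220 with the median of the probe sets and 196 when _x_at and _s_at probe sets were dropped. For heavy minus light polysomes it was 1354, and 702 without those probe sets. For total RNA alone it was 4113, and 2692 with the median of the probe sets; for light polysomes alone it was 1565, and 943 when _x_at and _s_at probe sets were dropped. The mock pair had 2328 genes beyond 2-fold, and 1502 with the median of the probe sets. No called value of a named gene changed sign. GINS2 lost its call with the median of its probe sets (adjusted p = 0.87) and when probe sets with those name endings were dropped (adjusted p = 0.89). The medians of the eIF3, condensin, apoptosis, BMP, TGF-beta, keratin, antioxidant, histone and SR lists changed sign under at least 1 alternative. Fits with an HMW array left out were not counted for this. They rest on 1 pair for heavy polysomes, and the pair medians of other lists also differed in sign. An example is the integrated stress response list, with 0.19 in the mock pair and -0.12 in the 10 Gy pair. The pairs were apart by at least 2-fold for 1810 genes, 270 of them higher in the 10 Gy pair and 1540 lower, and after quantile normalisation for 722 and 1127. Alternatives for the pairs, total RNA and light polysomes were mostly chosen after seeing the data. The arrays were matched into mock and 10 Gy pairs by the treatment term, and the 25 calls without it are those of the unmatched fit. The cause of these differences was not tested.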
